A study of Mus musculus with 7 samples.

Results

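Nuclear receptors are transcription factors that bind small fat-soluble ligands, such as steroid and thyroid hormones, retinoids, bile acids and sterols, or that act without a known hormone (orphan receptors). Most bind DNA through short half-sites, the steroid receptors as pairs of themselves and many others as partners of a retinoid X receptor. In the adult hypothalamus they are known for the feedback of gonadal and adrenal hormones and for the sensing of thyroid hormone, and several COUP-TF and orphan members are known for roles in building the embryonic brain. The 37 genes described here were chosen by name from this family, and 36 of them have a row among the 18335 gene symbols of the deposited table. Nr1h4, the bile acid receptor FXR, has no row there and was not analysed here.

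The RNA came from the arcuate nuclei of E15.5 mouse embryos (E counts days of embryonic age), which were dissected and dissociated before Pomc neurons and Npy neurons were sorted by fluorescence. The Pomc gene encodes the precursor of melanocortins, peptides that curb appetite. Npy encodes neuropeptide Y, a peptide that promotes feeding. There were 4 Pomc and 2 Npy libraries, and another Npy column was left out because its values follow from those of the other 2. The strain, any reporter allele, the sex of the embryos and the number of animals per library were not given in the sources used here. All p-values below therefore reflect the spread among these libraries alone, and that spread may be technical. No unit was stated, and the values were read as TPM. TPM is transcript abundance scaled to a fixed total per library and by gene length, so that levels can be compared between genes. Comparisons between genes below, such as shares of a receptor family, rest on this reading.

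Each library sums to 1000000 TPM, and 12496 to 14936 rows of the table stood above 0. The depth in reads is unknown, and a value of 0 says no more than that the gene is listed so. The sort marker gene Pomc reached 352 to 770 TPM in Pomc libraries and 24.0 and 59.4 TPM in Npy neurons. The other marker, Npy, reached 728 and 513 TPM in Npy neurons and 2.11 to 152 TPM in the Pomc libraries. The share of short RNA genes was 10.8 to 13.2% in Pomc neurons, and 14.1 and 17.3% in Npy neurons. Sums of some marker gene lists also ran with the groups, whereas those of radial glia and astrocytes and of cycling cells overlapped. Singly, 3 of 10 radial glia and astrocyte markers and 3 of 7 cycling cell markers were higher in both Npy libraries. This held for 7.86% of all genes tested below. Fabp7 was at 1.61 to 61.6 TPM in the Pomc libraries against 323 and 176 TPM. Glul went the other way, at 68.2 to 86.5 TPM against 51.9 and 54.3 TPM. The summed TPM of 6 oligodendrocyte precursor markers was 0.444 to 2.64 in the Pomc libraries against 228 and 207 in the Npy libraries, and that of 6 ventromedial nucleus markers, 1 of which is the nuclear receptor gene Nr5a1, was 446 to 701 against 62.9 and 85.8. Of the 6 ventromedial markers, Nkx2-1 was the highest, at 182 to 358 TPM in the Pomc libraries against 46.5 and 80.1 TPM, and only Bdnf overlapped. Which cells these transcripts came from was not tested. Summed over 10 pan-neuronal genes, the level was 4911 to 5733 TPM against 4260 and 3441. Taken singly, every Pomc library was above both Npy libraries for Tubb3, Elavl4 and Stmn2, as in 8.05% of all genes tested below. The groups overlapped for the other 7, of which Map2, Snap25, Syt1 and Dcx were highest in Npy replicate 1.

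By group mean, the same 3 of the 37 member genes (Thra, Nr2c2 and Nr2f2) were highest in both neuron types, and no member passed the test for a difference between them. Thra, the thyroid hormone receptor alpha gene, stood far above the rest in all 6 libraries. It was followed by the orphan receptor gene Nr2c2 and by Nr2f2, which encodes COUP-TFII. Of the 32 tested members, 0 passed an adjusted p of 0.05 (limma on log2(TPM + 1), Benjamini-Hochberg over all genes), where 0.412% of all 13845 tested genes passed. At an unadjusted p under 0.05 there was 1 member, Nr4a3, against 7.36% of all tested genes. The median log2 fold change of the 32 members (Pomc minus Npy) was -0.18, beside 0.015 over all tested genes, and the median size of the change without its sign was 0.37, beside 0.34. In a bulk sample, fewer cells that express a gene and less RNA per cell cannot be told apart, so each level below is an average over the sorted cells.

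**Figure D1:**
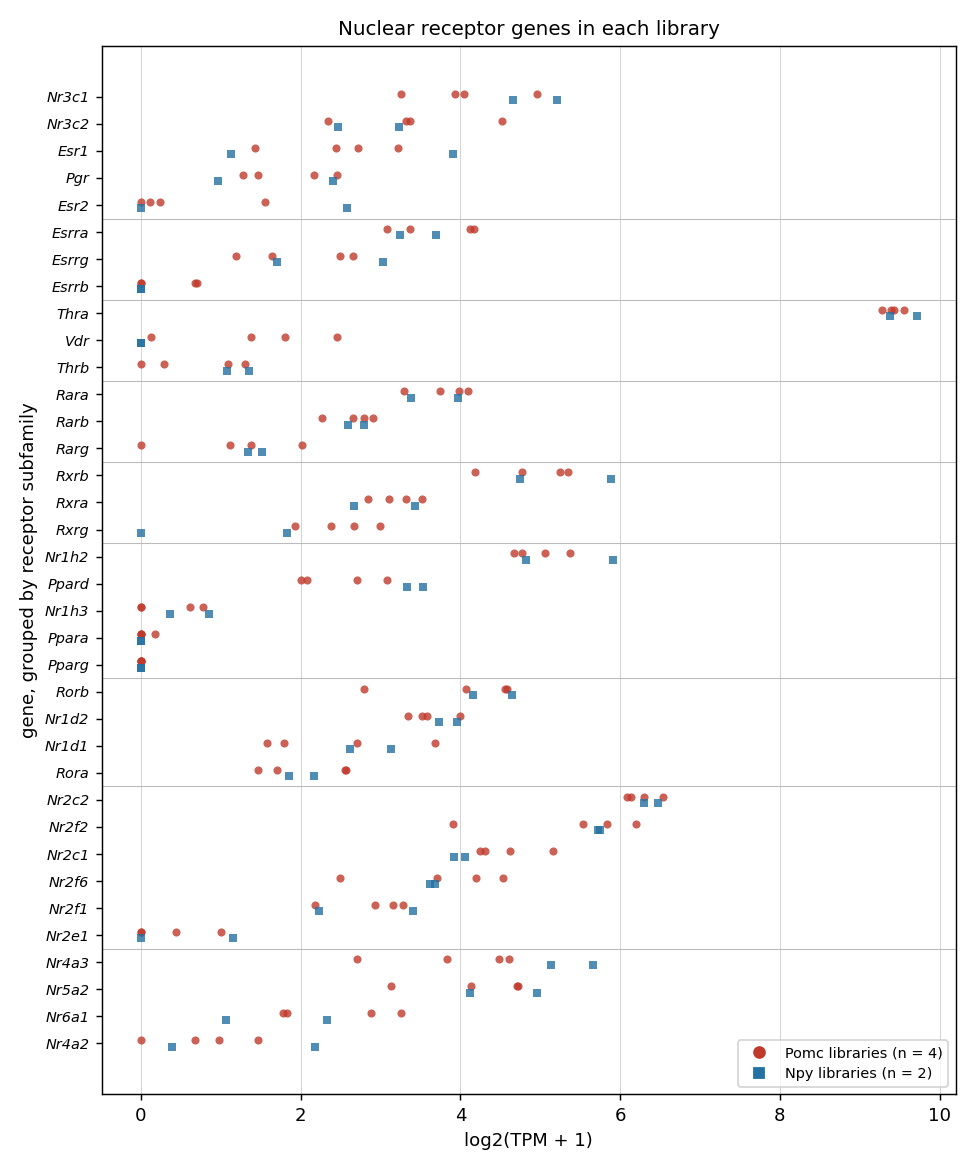
Level of each of the 36 receptor genes on the log2(TPM + 1) axis, with 1 point per library (red circles, 4 Pomc libraries; blue squares, 2 Npy libraries) and lines between subfamilies. Thra lies apart from the others at the right, and Pparg is listed at 0 in all 6 libraries.

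The levels spanned a wide range. By its mean over the 6 libraries, 1 gene (Thra) stood above 100 TPM, 13 genes lay between 10 and 100 TPM, 16 between 1 and 10 TPM and 5 below 1 TPM but above 0, and 1 gene (Pparg) was listed at 0 throughout. All 36 together summed to 1047 to 1113 TPM in Pomc neurons and to 1116 and 1329 TPM in Npy neurons. Thra alone made up 59.1 to 67.2% of this sum in the Pomc libraries and 59.7 and 63.1% in the Npy libraries. Without Thra the sums were 365 to 428 TPM in Pomc neurons and 450 and 491 TPM in Npy neurons.

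Many nuclear receptors other than the steroid receptors recognise the half-site AGGTCA or close variants of it. The stretches before the transcription starts of the receptor genes themselves were searched for it (RefSeq sequences, GRCm38.p6), because several receptors are known to act on genes of their own family. The search took in the 250 bases before each start on both strands and matched 34 of the 36 genes, with 54 starts. Thra and Nr3c1 had no entry among these sequences and were not searched. AGGTCA was present before 9 of these 54 starts (16.7%), which belong to 8 genes (Nr1d2, Nr5a2, Nr6a1, Pparg, Rarg, Rxra, Rxrg and Thrb), and before 14.02% of all 32851 starts in the table. The classic retinoic acid response element is a direct repeat of 2 half-sites (including variants of the half-site) spaced by 5 bases. Such a repeat was present before 1 of the 54 member starts, that of Rarb, and before 0.0883% of all starts. These matches describe the letters in the windows and do not show binding. The examples below are some of the matches in genes listed above 0 in libraries of both neuron types, and other such genes, among them Rxra and Nr5a2, are not shown. They read 5′ to 3′ on the strand of the gene, and capitals mark the repeat or the half-site.
Rarb (chr14:16575507-16575535, minus strand): gggaagGGTTCACCGAAAGTTCActcgca
Nr1d2 (chr14:18239156-18239205, minus strand): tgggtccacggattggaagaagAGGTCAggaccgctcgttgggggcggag
Thrb (chr14:17660754-17660803, plus strand): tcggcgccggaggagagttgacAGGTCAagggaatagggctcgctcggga
Rxrg (chr1:167618155-167618204, plus strand): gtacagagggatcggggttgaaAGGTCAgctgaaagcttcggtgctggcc
The repeat of Rarb lies 53 to 37 bases before its listed start, and the half-sites of Nr1d2, Thrb and Rxrg begin 77, 184 and 88 bases before theirs. In GENCODE M21 the Rarb window overlaps an untranslated exon part of a Rarb transcript model, the windows of Thrb and Rxrg lie inside their genes but in no exon, and that of Nr1d2 lies in no gene. Rxrg and Thrb have other listed starts besides the one shown.

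Thyroid hormone receptors bind DNA with or without their hormone, and Thra and Thrb are the 2 genes that encode them. The values are per gene, so different transcripts of the same gene are not told apart. Thra (chromosome 11, 98740638 to 98769006, GRCm38) reached 749, 619, 688 and 672 TPM in Pomc replicates 1 to 4 and 666 and 838 TPM in Npy replicates 1 and 2. It ranked between 94th and 143rd among all genes in these libraries, and the groups overlapped. Its log2 fold change was -0.13 ± 0.18 (SE, limma adjusted p = 0.901), with a 95% confidence interval from -0.53 to 0.27. Thrb reached 1.46, 1.13, 0.222 and 0 TPM in Pomc neurons and 1.56 and 1.119 TPM in Npy neurons. Thra therefore made up 99.77 to 100% of the summed TPM of these 2 genes in each of the 6 libraries. The end of Thra overlaps that of Nr1d1 on the opposite strand over 1075 bases (98767932 to 98769006). The kit keeps strand, per the labels, but the use of strand in counting was not given in the sources used here. Reads of this overlap may have been assigned to either gene.

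The genes around thyroid hormone were mostly low. Of the 7 genes listed for its transport and conversion, 6 had a row and 2 reached the limit for testing (1 TPM in at least 2 libraries), and neither passed. Dio3, the enzyme that inactivates thyroid hormone, reached 3.13, 1.13, 3.56 and 0 TPM in Pomc neurons and 6.25 and 4.55 TPM in Npy neurons. Both Npy libraries were above every Pomc library for Dio3, as in 7.86% of all tested genes. The difference did not pass (log2 -1.33 ± 0.79, 95% interval -3.11 to 0.445, limma adjusted p = 0.792). Dio2, the activating enzyme, stayed below 1 TPM in all 6 libraries.

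Retinoic acid receptors pair with retinoid X receptors, and in both families 1 gene held the largest share in all 6 libraries. Rara was the highest retinoic acid receptor gene, at 8.77, 12.4, 14.8 and 16.0 TPM in Pomc neurons and 9.44 and 14.6 TPM in Npy neurons. Its groups overlapped throughout (log2 0.10 ± 0.49, limma adjusted p = 0.977, 95% interval -1.001 to 1.20). Rarb, which retinoic acid itself is known to induce through a repeat of this kind, ranged from 3.82 to 6.502 TPM in Pomc neurons and was at 5.03 and 5.94 TPM in Npy neurons (log2 -0.038 ± 0.58, adjusted p = 0.992). Rarg reached 0 to 3.05 TPM against 1.86 and 1.53 TPM. Within a library, Rara made up 63.8 to 69.9% of the summed retinoic acid receptor TPM in Pomc neurons and 57.8 and 66.2% in the Npy libraries.

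Rxrb was the highest retinoid X receptor gene. Its levels were 26.4, 36.9, 39.6 and 17.2 TPM in Pomc neurons and 25.8 and 58.2 TPM in Npy neurons, so the Npy libraries lay on both sides of the Pomc median (log2 -0.43 ± 0.45, limma adjusted p = 0.872). Rxra reached 6.16 to 10.4 TPM against 5.37 and 9.82 TPM. Rxrg (chromosome 1, 167598384 to 167639623) behaved differently, at 5.38, 6.95, 4.21 and 2.82 TPM in Pomc neurons and 2.54 and 0 TPM in Npy neurons. All 4 Pomc libraries lay above both Npy libraries, although Pomc replicate 4 was only just above Npy replicate 1. With Npy replicate 2 at 0, the Npy libraries alone would not have met the limit for testing Rxrg (1 TPM in at least 2 libraries). Its log2 fold change was 1.58 ± 0.74, with a 95% interval from -0.079 to 3.24, and did not pass (limma adjusted p = 0.701; two-sided exact permutation p = 0.0667, the smallest value that 4 against 2 libraries allow). The log2 fold change was 0.67 without Npy replicate 2, the library at 0, and 2.49 without Npy replicate 1 (limma adjusted p = 0.999 and 0.319).

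The make-up of a receptor family within a library does not depend on the scale of that library. Rxrg made up 14.2, 12.8, 7.96 and 10.2% of the retinoid X receptor TPM in Pomc neurons and 7.54 and 0% in the Npy libraries. Rxrb made up 69.6, 68.0, 75.0 and 62.2% in the Pomc libraries and 76.5 and 85.6% in the Npy libraries. The groups did not overlap in either share, and the gap between the nearest libraries was small. Of 16 such shares compared over 8 families, these had the lowest p (two-sided exact permutation p = 0.0667 each, 0.533 after Benjamini-Hochberg adjustment). Because the shares of a family add up to a fixed sum, they are not independent of each other.

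**Figure D2:**
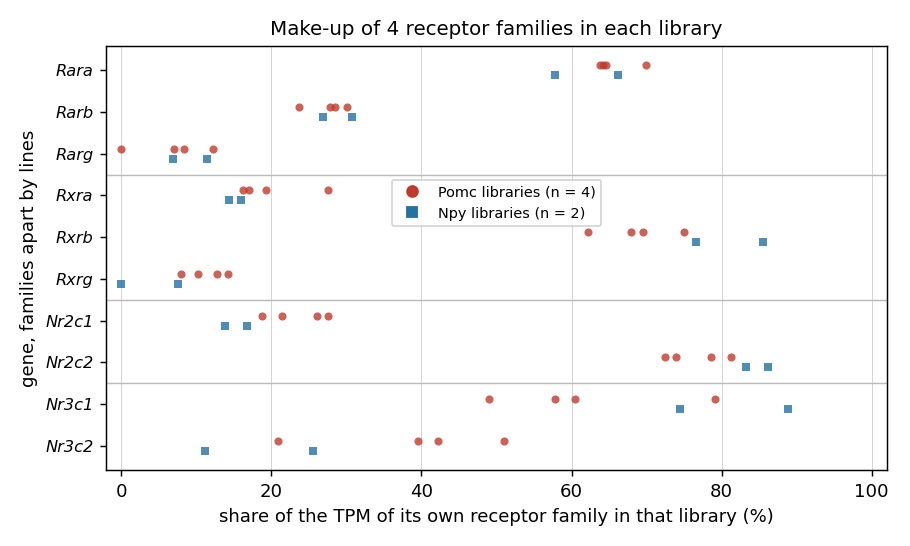
Share of each gene in the summed TPM of its own receptor family, in percent, with 1 point per library (red circles, 4 Pomc libraries; blue squares, 2 Npy libraries) for the retinoic acid, retinoid X, testicular and corticosteroid receptors. Rxrb holds 62.2 to 75.0% of its family in the Pomc libraries and 76.5 and 85.6% in the Npy libraries, whereas the shares of Rara, Rarb and Rarg overlap.

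Around these receptors, 15 genes were listed for the making, binding and breakdown of retinoids, of which 13 had a row and 6 were tested. None passed over all genes by limma, and 3 of the 6 had an unadjusted p under 0.05, against 7.36% of all tested genes. In these 3 every Pomc library was above both Npy libraries, as in 8.05% of all tested genes. Crabp2, a carrier that delivers retinoic acid to its receptors, reached 36.7, 41.8, 55.5 and 51.1 TPM in Pomc neurons and 14.9 and 23.2 TPM in Npy neurons (log2 1.25 ± 0.32, adjusted p = 0.274). Fabp5, a fatty acid carrier that can also bind retinoic acid and that was chosen after its values were seen, reached 921, 474, 556 and 668 TPM against 409 and 388 TPM (log2 0.67 ± 0.25, adjusted p = 0.575). The enzymes Aldh1a1, Aldh1a2 and Aldh1a3, which make retinoic acid, were listed at 0 in both Npy libraries and at no more than 1.64 TPM in any Pomc library. The median over the 6 tested genes was 0.86, beside 0.015 over all tested genes. This list is small and was chosen with earlier results of these data known, so its median was not tested as a trend.

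The vitamin D receptor gene Vdr (chromosome 15, 97854425 to 97910630) was listed at 0 in both Npy libraries. Pomc replicates 1 to 4 had 2.50, 0.0882, 1.60 and 4.46 TPM. Every Pomc value was above 0, but that of Pomc replicate 2 was close to it. The difference did not pass (limma adjusted p = 0.775; two-sided exact permutation p = 0.133). Vdr was tested only because 3 Pomc libraries reached 1 TPM, so its direction follows from that limit. The microglia markers in Pomc replicate 4, the library with the highest Vdr value, summed to 42.3 TPM against at most 2.27 TPM in the other 5 libraries, with 3 of the 6 markers at 0 in it. Their part in the level of Vdr was not tested.

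**Figure D3:**
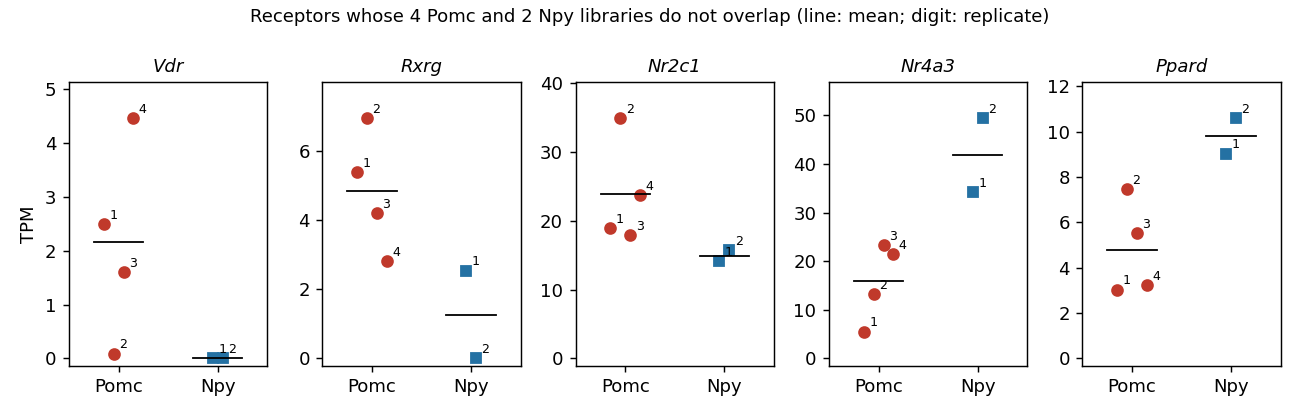
TPM of the 5 receptor genes in which the 4 Pomc and the 2 Npy libraries did not overlap, with 1 point per library labelled by its replicate number and a line at the group mean. Vdr, Rxrg and Nr2c1 were higher in the Pomc libraries and Nr4a3 and Ppard in the Npy libraries, and none of the 5 passed the adjusted test.

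In 5 of the 32 tested members the groups did not overlap, and these are plotted by library above. For 3 of them (Vdr, Rxrg and Nr2c1) every Pomc library was above both Npy libraries, as in 8.05% of all tested genes. For the other 2 (Nr4a3 and Ppard) both Npy libraries were above every Pomc library, as in 7.86% of all tested genes. The share among the members was thus 3 of 32 and 2 of 32, near the background in each direction. Nr2c1 and Ppard differed by less than 1 on the log2 scale and are described in full because of this count.

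Nr4a3 had the smallest p of all members. It encodes NOR-1, an orphan receptor whose gene is switched on quickly by neuronal activity and many other stimuli. Nr4a3 (chromosome 4, 48045153 to 48086447) reached 5.53, 13.2, 23.3 and 21.4 TPM in Pomc neurons and 34.2 and 49.4 TPM in Npy neurons. The lower Npy library thus lay above the highest Pomc library, and the Pomc libraries themselves were spread widely, with replicate 1 lowest. The log2 fold change was -1.49 ± 0.56, with a 95% interval from -2.76 to -0.21 (limma unadjusted p = 0.0267, adjusted p = 0.575; two-sided exact permutation p = 0.133). Its relative Nr4a2, which encodes NURR1 of dopamine neurons, was low and overlapped, at 0 to 1.75 TPM against 3.54 and 0.307 TPM. Nr4a1, the remaining gene of this subfamily and not a member here, reached 0.896 to 6.86 TPM against 5.12 and 15.9 TPM (log2 -1.48 ± 0.78, adjusted p = 0.773). The oligodendrocyte precursor markers ran in the same direction as Nr4a3 and Ppard. All 6 of these markers were higher in both Npy libraries, with 2 of them (Olig2 and Cspg4) at 0 in every Pomc library. Their part in these levels was not tested.

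The lipid and sterol sensors were represented by Nr1h2 and Ppard. Nr1h2 encodes liver X receptor beta, a sensor of oxysterols, and reached 26.4, 40.4, 24.5 and 32.4 TPM in Pomc neurons and 27.2 and 59.0 TPM in Npy neurons (log2 -0.39 ± 0.38, limma adjusted p = 0.862). The 2 Npy libraries lay on either side of the Pomc mean. Nr1h3, liver X receptor alpha, stayed below 1 TPM everywhere, so that Nr1h2 made up at least 97.3% of the pair in each library. Ppard, the fatty acid receptor PPAR delta (chromosome 17, 28232700 to 28301474), reached 3.02, 7.46, 5.51 and 3.22 TPM in Pomc neurons and 9.03 and 10.6 TPM in Npy neurons. The groups were apart by less than the range of the Pomc libraries, and the difference did not pass (log2 -0.96 ± 0.61, 95% interval -2.33 to 0.40, limma adjusted p = 0.807; two-sided exact permutation p = 0.133). Ppara was listed at 0 except for 0.132 TPM in Pomc replicate 3, and Pparg, the receptor of fat cell formation, at 0 in all 6 libraries.

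Among the steroid receptors, the glucocorticoid receptor gene Nr3c1 was the highest. It reached 15.6, 30.1, 14.2 and 8.59 TPM in Pomc neurons and 24.3 and 35.9 TPM in Npy neurons. Pomc replicate 2 lay between the Npy libraries and the other 3 Pomc libraries below both (log2 -0.88 ± 0.51, limma adjusted p = 0.791, 95% interval -2.03 to 0.27). Nr3c2, the mineralocorticoid receptor gene, reached 4.09, 21.9, 9.32 and 8.94 TPM against 8.35 and 4.53 TPM (log2 0.54 ± 0.69, adjusted p = 0.895). Nr3c1 made up 49.0 to 79.2% of the TPM of these 2 corticosteroid receptors in the Pomc libraries and 74.4 and 88.8% in the Npy libraries, and these shares overlapped.

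The gonadal steroid receptors were lower. Esr1, estrogen receptor alpha, reached 4.45, 1.69, 5.60 and 8.35 TPM in Pomc neurons and 14.1 and 1.19 TPM in Npy neurons. The highest and the lowest value thus both came from Npy libraries, and the difference between the groups had a log2 value of -0.067 ± 0.88. Pgr, the progesterone receptor, reached 1.77, 1.42, 4.47 and 3.51 TPM against 4.29 and 0.955 TPM. It was lowest in the same library of each type as Esr1, Pomc replicate 2 and Npy replicate 2. Esr2, estrogen receptor beta, reached 4.995 TPM in Npy replicate 2 and was listed at 0 in Npy replicate 1, and it lay between 0 and 1.93 TPM in the Pomc libraries. The estrogen-related receptors, which have no known hormone, were led by Esrra at 7.43 to 16.99 TPM in Pomc neurons and 8.48 and 11.9 TPM in Npy neurons (log2 0.21 ± 0.54, adjusted p = 0.951). Esrrg reached 1.28 to 5.29 TPM against 7.17 and 2.26 TPM, and Esrrb stayed below 1 TPM.

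No gene of the 3 lists around the steroid receptors passed. An unadjusted p under 0.05 is read against the 7.36% of all tested genes that had one. Groups without overlap are read against the 8.05% of all tested genes with every Pomc library higher and the 7.86% with both Npy libraries higher. Of 10 chaperones and co-chaperones of these receptors, all tested, none passed, and 1 had an unadjusted p under 0.05. This was Fkbp5, a co-chaperone of the glucocorticoid receptor that glucocorticoids induce. Fkbp5 reached 63.8, 54.8, 57.2 and 53.2 TPM in Pomc neurons and 30.6 and 14.4 TPM in Npy neurons, with no overlap (log2 1.40 ± 0.33, limma adjusted p = 0.200). Of 12 tested genes that respond to nuclear receptors, none passed and 1, the cholesterol transporter gene Abca1, had an unadjusted p under 0.05. Abca1, a target of the liver X receptors, reached 3.98, 15.51, 7.10 and 17.5 TPM against 2.23 and 1.38 TPM (log2 1.93 ± 0.71, adjusted p = 0.564). The groups also did not overlap for Zbtb16, a glucocorticoid-responsive gene, at 4.00 to 8.29 TPM against 9.61 and 16.4 TPM (adjusted p = 0.807). They overlapped for the other 10, among them Tsc22d3, a glucocorticoid target, at 17.9 to 32.5 TPM against 28.1 and 37.3 TPM, and Abcg1, a second liver X receptor target, at 17.04 to 41.3 TPM against 19.1 and 39.3 TPM. Zbtb16, Tsc22d3 and Abcg1 were chosen after their values were seen. Of 6 tested genes of steroid and sterol metabolism, none passed and none had an unadjusted p under 0.05. The smallest p belonged to Hsd17b12, an enzyme of steroid and fatty acid metabolism, at 57.5 to 96.5 TPM against 59.2 and 57.0 TPM (limma adjusted p = 0.848).

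The REV-ERB and ROR receptors bind the same kind of DNA element with opposite effects and are known for their place in the circadian clock. Rorb was the highest, at 15.7, 22.996, 22.7 and 5.95 TPM in Pomc neurons and 24.1 and 16.9 TPM in Npy neurons (log2 -0.40 ± 0.58, limma adjusted p = 0.911), with Pomc replicate 4 low. Nr1d2, which encodes REV-ERB beta, was steadier, at 9.18 to 14.9 TPM against 14.5 and 12.3 TPM (log2 -0.23 ± 0.47). Nr1d1, REV-ERB alpha, reached 2.46, 1.98, 11.9 and 5.52 TPM against 5.15 and 7.78 TPM, and the highest Pomc library was above both Npy libraries. Rora reached 1.76 to 4.92 TPM against 3.49 and 2.61 TPM. Of 14 tested clock genes, none passed and 2 had an unadjusted p under 0.05 by limma, against 7.36% of all tested genes. Every Pomc library was above both Npy libraries in 2 of the 14 (Tef and Bhlhe41), against 8.05% of all tested genes. Both Npy libraries were above every Pomc library in another 2 (Nfil3 and Dbp), against 7.86%. Nfil3, a repressor that works with REV-ERB receptors, reached 9.96 to 18.4 TPM in the Pomc libraries against 33.4 and 22.8 TPM in Npy neurons (log2 -1.10 ± 0.44, adjusted p = 0.613). Arntl, which encodes the clock activator BMAL1 and is a target of both receptor types, reached 19.3, 53.4, 41.2 and 46.9 TPM against 19.9 and 16.2 TPM (log2 1.03 ± 0.43, adjusted p = 0.650), with Pomc replicate 1 among the Npy values.

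Among the members, the COUP-TF, TLX and testicular receptors held the most abundant orphan receptor genes. Nr2c2, testicular receptor 4, reached 69.3, 91.6, 77.8 and 67.1 TPM in Pomc neurons and 87.8 and 77.7 TPM in Npy neurons. It overlapped fully, with a log2 fold change of -0.12 ± 0.22 and a 95% interval from -0.61 to 0.37 (limma adjusted p = 0.928). Its partner Nr2c1, testicular receptor 2 (chromosome 10, 94148023 to 94197211), reached 18.9, 34.8, 17.9 and 23.7 TPM against 14.1 and 15.7 TPM. The groups did not overlap, but the lowest Pomc and the highest Npy library lay close together (log2 0.60 ± 0.41, 95% interval -0.33 to 1.52, adjusted p = 0.815; two-sided exact permutation p = 0.133). Nr2c1 made up 21.4, 27.6, 18.7 and 26.1% of the pair in the Pomc libraries and 13.8 and 16.8% in the Npy libraries (two-sided exact permutation p = 0.133, 0.711 after Benjamini-Hochberg adjustment over the 16 shares). The ventromedial nucleus markers ran in the same direction as Vdr, Rxrg and Nr2c1, with summed levels given above, and their part in these levels was not tested.

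Nr2f2 reached 56.2, 13.97, 45.5 and 72.2 TPM in Pomc neurons and 51.8 and 52.6 TPM in Npy neurons. The Npy libraries agreed closely and fell inside the Pomc range, which Pomc replicate 2 stretched downwards (log2 -0.37 ± 0.55, limma adjusted p = 0.913). Nr2f1, COUP-TFI, reached 8.73, 3.51, 7.93 and 6.60 TPM against 9.61 and 3.69 TPM. Nr2f6 reached 4.63 to 22.2 TPM against 11.8 and 11.3 TPM. Nr2e1, which encodes TLX of neural stem cells, was at most 1.22 TPM in any library and was listed at 0 in 3 of the 6. Among the remaining orphan receptors, Nr5a2, which encodes LRH-1, reached 25.5, 7.74, 16.6 and 25.3 TPM in Pomc neurons and 30.1 and 16.4 TPM in Npy neurons (log2 -0.37 ± 0.55, limma adjusted p = 0.912). Nr6a1, the germ cell nuclear factor, reached 2.43, 6.37, 2.56 and 8.54 TPM against 4.04 and 1.10 TPM (log2 0.73 ± 0.74, adjusted p = 0.867).

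Of 10 further receptor genes of the family, chosen with earlier results of these data known and listed as a comparison, 9 had a row. Of the 4 that were tested, 1 passed, against 0.412% of all tested genes. This was Nr5a1, the closest relative of Nr5a2, which encodes steroidogenic factor 1. Nr5a1 reached 167, 137, 119 and 118 TPM in Pomc neurons, against 5.25 and 2.81 TPM in Npy neurons (limma adjusted p = 0.000524). In the Pomc libraries it was therefore above every member except Thra, whereas in the Npy libraries it lay among the low receptors. Nr0b1, which encodes DAX1, a partner that represses steroidogenic factor 1, reached 39.0, 15.2, 20.0 and 30.9 TPM against 8.44 and 1.18 TPM, without overlap (log2 2.50 ± 0.67, unadjusted p = 0.00444, adjusted p = 0.300). In 2 of the 4 tested genes (Nr5a1 and Nr0b1) every Pomc library was above both Npy libraries, against 8.05% of all tested genes. Hnf4a and Nr1i2, receptors of liver and gut, were listed at 0 in all 6 libraries.

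Coactivators and corepressors, which receptors recruit to switch genes on or off, were measured in all 24 listed cases, and none passed. Their median log2 fold change was 0.12, and 3 of the 24 had an unadjusted p under 0.05 by limma, against 7.36% of all tested genes. Ncoa3, a coactivator of steroid receptors, reached 85.3, 95.5, 108 and 94.8 TPM in Pomc neurons and 62.2 and 60.6 TPM in Npy neurons (log2 0.63 ± 0.20, limma adjusted p = 0.432). Nrip1, a corepressor that estrogen induces, reached 26.0, 32.5, 31.6 and 21.97 TPM against 16.3 and 11.9 TPM (log2 0.94 ± 0.37, adjusted p = 0.603). Ppargc1b, a coactivator of the PPAR and estrogen-related receptors, was lower in Pomc neurons by its values, at 2.14, 1.92, 1.13 and 0 TPM against 5.06 and 6.56 TPM (log2 -1.69 ± 0.72, adjusted p = 0.650). In these 3 genes the libraries of the groups did not overlap, nor did they for Tbl1x, at 73.9 to 147.5 TPM against 67.7 and 56.2 TPM. Every Pomc library was thus above both Npy libraries in 3 of the 24, against 8.05% of all tested genes. Both Npy libraries were above every Pomc library in 1 of the 24, against 7.86%.

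**Figure D4:**
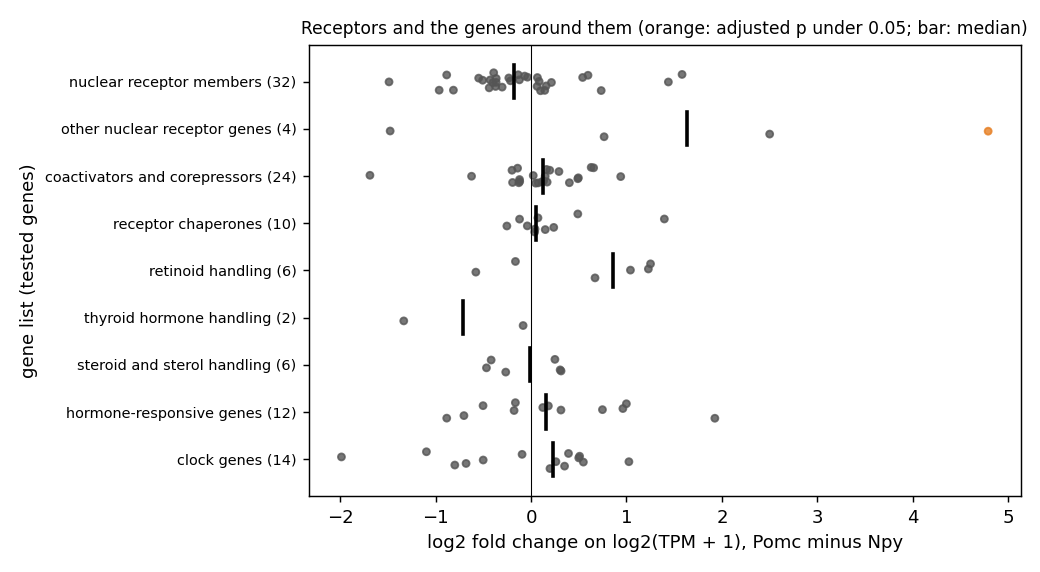
Log2 fold change (Pomc minus Npy, on log2(TPM + 1)) of each tested gene in the receptor list and in 8 lists of genes around it, with the number of tested genes in brackets, a bar at the median and orange for an adjusted p under 0.05. Nr5a1 is the orange point, and the receptor members have their median at -0.18.

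How large a difference the data allow varied with the level of the gene. The 95% interval lay within a 2-fold change in both directions for 2 of the 32 tested members, Thra and Nr2c2. For the other 30 it reached beyond 2-fold in at least 1 direction, so for these a missed threshold does not show equal levels. The interval left out 0 for 1 member, Nr4a3. The median standard error of the 32 members was 0.62 on the log2 scale, against 0.45 over all tested genes. In 21 of the 32 members the estimated difference was below 0.5 on the log2 scale.

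**Figure D5:**
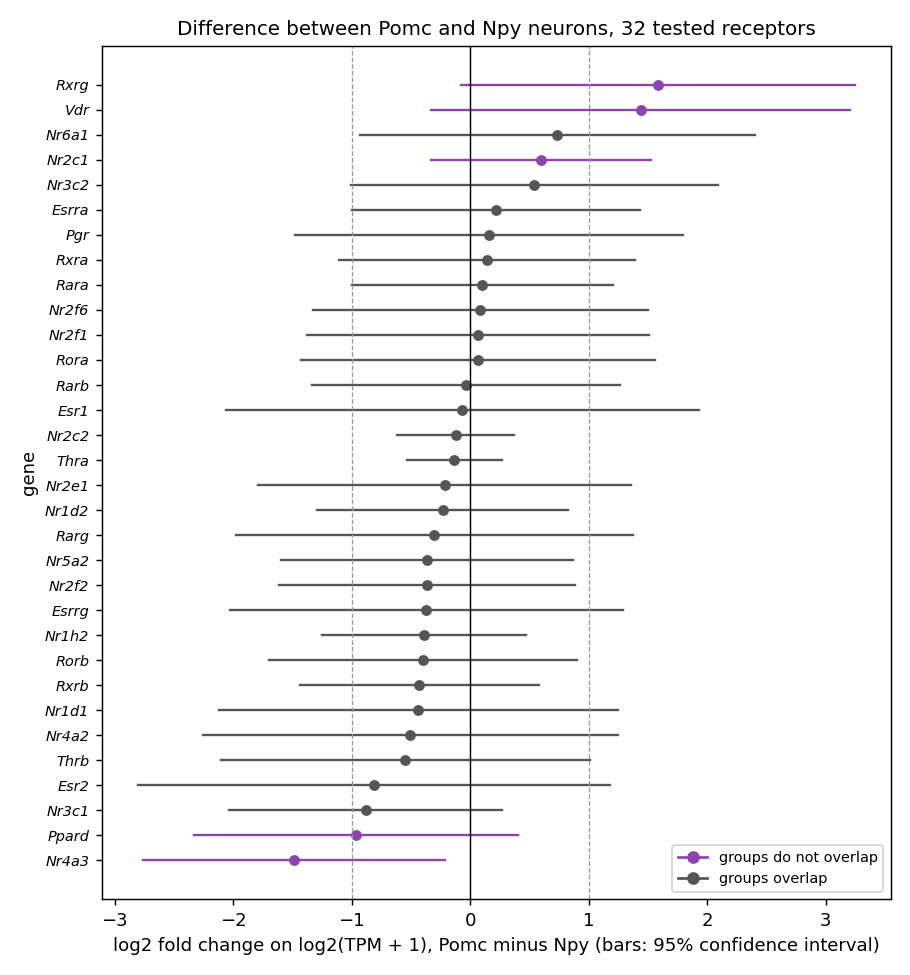
Log2 fold change (Pomc minus Npy, on log2(TPM + 1)) of the 32 tested receptor genes, with bars for the 95% confidence interval, dashed lines at a 2-fold change and purple for genes whose groups do not overlap. Only the bar of Nr4a3 leaves out 0, and only those of Thra and Nr2c2 stay between the dashed lines. The point of Vdr, listed at 0 in both Npy libraries, depends on the 1 TPM added before taking logs.

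The Pomc libraries also varied among themselves. Among the 25 members above 0 in all 6 libraries, Pomc replicate 2 was the highest of the 4 Pomc libraries in 10 and the lowest in 7, and Pomc replicate 1 the highest in 5 and the lowest in 9. Pomc replicate 2 held the highest Pomc value of Nr3c1, Nr3c2, Nr2c1, Nr2c2, Rxrg and Nr1h2, and the lowest of Nr2f2, Nr2f1, Nr5a2, Esr1 and Pgr. It was also the library with the lowest level of the peptide gene Npy, at 2.11 TPM.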

How the data were processed

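One file was deposited, with gene symbols in rows, 7 sample columns and no stated unit. Its deposited values were read as TPM, since the columns used sum to 1000000 and short RNA genes stand highest. The submitters' processing notes name HISAT2, edgeR 3.8 and the mm10 build, with no role or order; counting, strand use and annotation were not given in the sources used here. Libraries were made from 1 ng of total RNA with a stranded kit, per the labels' protocols. The column of Npy replicate 3 was left out: in all 15223 genes with a value it is 95 to 105% of the average of the columns of Npy replicates 1 and 2, always by a whole percent (tolerance 1e-04 percentage points). Groups came from the sample titles.

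All genes with at least 1 TPM in at least 2 of the 6 libraries were fitted with limma 3.58.1 (R 4.3.3, variance trend) on log2(TPM + 1), two-sided, with Benjamini-Hochberg adjustment over all 13845 genes and a threshold of 0.05. A fold change on this scale understates the change of low genes. The fit was tested on simulated data with changes placed only in genes of higher level, so that test does not cover the low members. The 4 rows with repeated symbols were left out. Coordinates come from GENCODE M21. Members, gene lists and tests were chosen with earlier results of these data known. Values per library are given for members with an adjusted or unadjusted p under 0.05, for those whose groups do not overlap and differ by at least 1 on the log2 scale, and for the highest of each subfamily; values given for further members were chosen after they were seen. From each gene list, the genes called or up to 2 with the smallest p were named by rule; some genes the rule picks are not reported here. Tried as alternatives were other pseudocounts, filters, scalings and priors, all 7 columns, a replicate block and leaving out each library.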

Additional observations from a re-analysis of the deposited data

Results flagged for a closer look

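For each member, the gap between the most distant Pomc library and its nearest neighbour was divided by the whole range of the 4 Pomc libraries. Of 35 members with any spread, 2 had a gap above Dixon's 95% limit for that ratio, where chance gives about 1 in 20. Esr2 reached 1.93 TPM in Pomc replicate 4 against at most 0.182 TPM in the other 3. Ppara was at 0.132 TPM in Pomc replicate 3 and listed at 0 in the other 3, so that any value above 0 stands out. Both genes are near the lower end of the measured range.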

How the results depend on the processing

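No member passed an adjusted p of 0.05 in any of the 15 alternatives (0 in each), and the lowest adjusted p of any member was between 0.175 (all 7 columns) and 0.999 (without Npy replicate 2). Over all genes the count of 57 became 37 with a pseudocount of 0.1 TPM, 33 with no filter, 205 with all 7 columns and 12 with the replicate block, and it ranged from 22 to 69 when 1 library was left out. When either Npy library is left out, the remaining one is assumed to vary like the Pomc libraries. The replicate numbers give only 2 pairs, whose deviations from the group means correlated at -0.044 and -0.033 across genes. Deviations of 2 Npy libraries mirror each other, so these values cannot decide whether the libraries are paired. The libraries were not taken as pairs. For 13 members, 185 of 193 alternative values kept their direction. Those that turned belong to members named as the highest of their subfamily, with main log2 fold changes from -0.43 (Rxrb) to 0.21 (Esrra). Among the 13 are the 5 members whose groups do not overlap. Leaving out a library or changing the pseudocount or filter could not turn the direction of these 5. Rara became -0.16 with the replicate block. Leaving out 1 library in turn, log2 fold changes ranged from -0.19 to 0.39 for Rara (below 0 without Npy replicate 1, and -0.0058 without Pomc replicate 4), from -0.64 to 0.00084 for Rorb (above 0 without Pomc replicate 4) and from -0.010 to 0.44 for Esrra (below 0 without Npy replicate 1). The ranges were -0.93 to 0.15 for Nr1h2, -1.001 to 0.14 for Rxrb and -0.30 to 0.031 for Thra, each above 0 without Npy replicate 2. The cause was not tested. The log2 fold change of Rxrg, a gene with low values, was 3.19 with a pseudocount of 0.1 TPM and 0.66 with 5 TPM. With a limit of 5 TPM in at least 3 libraries, Rxrg and Vdr were not tested. Nr4a3 ranged from -1.09 to -1.75 when 1 library was left out. The depth in reads is unknown.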
